A study of Mus musculus with 4 samples.

Results

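Described here are 48 members of a list of NF-kB, cytokine and chemokine genes. They were read in kidney nuclei of mice with and without repeated cisplatin, a platinum drug that injures the proximal tubule. The members were chosen by symbol, and the list was written with earlier results of these data known. Gm17268 is on the list as a gene that overlaps Ccl2, and whether it belongs to this system was not tested. It is counted with the members throughout. All 48 were among the 24468 genes of a table of 17 nuclei clusters, and 45 were among the 21312 genes of a table that compares proximal tubule nuclei of both groups. Il6, Tnfrsf11b and Tlr2 were in the cluster table only.

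All mice were male C57BL/6. The group Cis9w received 8 mg/kg cisplatin in 4 weekly injections, and the kidneys date from 9 weeks after the first of them. The group CT9w was untreated, and its samples bear the same time label. Each group had 2 samples, 4 in all, of cortex with outer medulla, and RNA of single nuclei was read by a droplet 3' method that counts unique molecular identifiers (UMIs). Both tables give averages over pooled nuclei, in normalised UMIs per nucleus, with no column for a single sample. No spread between animals could therefore be computed, and the sources used here do not say whether 1 or 2 samples per group make up the proximal tubule table. The cluster table pools CT9w and Cis9w nuclei.

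NF-kB is a family of dimeric transcription factors built from the subunits RelA, RelB, c-Rel, p50 and p52. Inhibitor proteins of the IkB family hold the dimers in the cytoplasm until kinases activated by TNF receptors, interleukin-1 receptors or Toll-like receptors mark the inhibitors for degradation. The freed dimers switch on genes of chemokines, cytokines, adhesion molecules and their own inhibitors, so that many members of the system are both its parts and its targets. In the kidney, injured tubule cells are known to make chemokines and colony-stimulating factors that draw in monocytes, neutrophils and T cells and keep macrophages alive.

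The proximal tubule pools held 5123727 UMIs in CT9w and 8557662 in Cis9w, and the 17 clusters held between 254460 (mixed-2) and 7425098 (PT-S2/S3). Together the pools held fewer UMIs than the proximal tubule clusters PT-S2/S3, PT-S1 (5420077) and PT-S2 (4278626) alone. The comparison of Cis9w with CT9w thus covers only part of the proximal tubule UMIs of the cluster table. The sources used here do not say which nuclei were left out. The cluster names used below were checked against marker genes, which passed where p was under 0.05 and log2 fold change 1 or more (the authors' deposited table). In PT-injury/repair 10 of 13 injured proximal tubule markers did so, and 0 of 10 markers of mature proximal tubule, of which 3 passed in each of PT-S1, PT-S2 and PT-S2/S3. The 13 include Ccl2, itself a member. Of the same 13, 4 passed in Immune cells and 3 in each of EC1 and Mixed-1. PT-injury/repair is grouped with the proximal tubule below by the authors' name for it. By the same threshold 15 of 16 macrophage and dendritic cell markers and 11 of 15 lymphocyte markers passed in Immune cells, and 10 of 10 endothelial markers in each of EC1 and EC2. In Mixed-1, a name that gives no cell type, 10 of 12 fibroblast, pericyte and mesangium markers passed. The Immune cells cluster is small, with 363369 UMIs, and an average based on 3 UMIs there is 0.0166 normalised UMIs per nucleus, against 0.00366 in PT-injury/repair. The 95% intervals in brackets come from UMI sums (Clopper-Pearson where 2 sums are compared) and cover counting error only, not differences between nuclei or animals.

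Promoters are shown for 5 members whose level was high in PT-injury/repair or that encode the best known feedback inhibitor, to set the regulatory letters beside the values. RefSeq promoter sequences (GRCm38.p6, the same assembly as mm10; 250 bases before and 50 after each start) were matched for 35 of the 48 members, all but Ccl2, Ccl5, Ccl7, Cxcl16, Gm17268, Il34, Il15, Tnfrsf11b, Tlr4, Ripk2, Nfkb1, Relb and Nfkbiz. A match to the kappaB consensus, the 10-base site that NF-kB dimers bind, was sought on both strands, and overlapping matches were merged. It was found for 14 of the 35 (40.0%), and for 5.14% of 27025 genes with a promoter in the same table. The 14 were Ccl20, Cxcl1, Cxcl2, Cxcl10, Csf1, Il6, Tlr2, Nfkb2, Rel, Nfkbia, Nfkbie, Bcl3, Tnfaip3 and Tnip1. A match is a description of letters and no measured binding. The 250 bases before the start follow, 5′ to 3′ on the gene's strand, with kappaB matches in capitals.
Cxcl1 (chr5:90890995-90891244, plus strand): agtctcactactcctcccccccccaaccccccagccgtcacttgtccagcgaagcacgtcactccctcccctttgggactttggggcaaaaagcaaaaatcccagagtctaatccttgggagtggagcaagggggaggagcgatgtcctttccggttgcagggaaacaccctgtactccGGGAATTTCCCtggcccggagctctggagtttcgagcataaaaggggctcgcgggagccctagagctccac
Cxcl2 (chr5:90903649-90903898, plus strand): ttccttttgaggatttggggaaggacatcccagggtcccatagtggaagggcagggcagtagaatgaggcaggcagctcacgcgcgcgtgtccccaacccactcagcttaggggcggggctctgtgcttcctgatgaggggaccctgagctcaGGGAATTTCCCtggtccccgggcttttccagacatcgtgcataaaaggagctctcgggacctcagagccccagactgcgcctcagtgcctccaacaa
Cxcl10 (chr5:92348890-92349139, minus strand): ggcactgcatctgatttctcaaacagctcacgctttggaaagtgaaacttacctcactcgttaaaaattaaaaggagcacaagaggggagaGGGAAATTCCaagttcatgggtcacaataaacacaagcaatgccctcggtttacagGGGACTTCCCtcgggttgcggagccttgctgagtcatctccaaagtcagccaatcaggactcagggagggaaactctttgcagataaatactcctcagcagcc
Csf1 (chr3:107760470-107760719, minus strand): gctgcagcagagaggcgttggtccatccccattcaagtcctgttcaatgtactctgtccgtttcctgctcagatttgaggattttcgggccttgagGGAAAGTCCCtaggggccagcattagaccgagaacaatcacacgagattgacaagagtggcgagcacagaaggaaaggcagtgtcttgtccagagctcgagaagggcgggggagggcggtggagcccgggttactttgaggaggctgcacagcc
Nfkbia (chr12:55492648-55492897, minus strand): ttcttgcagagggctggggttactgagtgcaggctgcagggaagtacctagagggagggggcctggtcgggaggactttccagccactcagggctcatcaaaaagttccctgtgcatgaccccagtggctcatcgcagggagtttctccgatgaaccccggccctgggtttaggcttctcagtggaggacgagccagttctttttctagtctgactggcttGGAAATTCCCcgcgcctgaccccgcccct
Cxcl1 and Cxcl2, neighbouring chemokine genes on chromosome 5, share the block GGGAATTTCCC, which begins 71 bases before the start in Cxcl1 and 97 before it in Cxcl2. Cxcl10 holds 2 separate matches, which begin 159 and 103 bases before its start. In Csf1 the match begins 154 bases before the start and in Nfkbia 29 bases before it. All 5 promoters printed hold a match, so they do not stand for all members high in PT-injury/repair. Of those, Birc3, Icam1, Traf1, Tnf and Tnfrsf12a had no match in these windows, and Birc3 and Icam1 rose in Cis9w.

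Across the kidney, the 48 genes were concentrated in injured tubule, immune, stromal and endothelial nuclei. A member counts as passing in a cluster where the authors' deposited table gives p under 0.05 and a log2 fold change of 1 or more against all other nuclei. The clusters were built on these same nuclei, so these counts describe where the genes lay and are no test. In PT-injury/repair 23 of 48 members passed (47.9%), where 4.61% of all genes did. Among genes with at least 20 UMIs over the 17 clusters the shares were 22 of 43 members (51.2%) and 5.47% of genes. Immune cells followed with 13 members against 4.25% of all genes, Mixed-1 with 12 against 6.16%, EC2 with 9 against 5.84% and EC1 with 6 against 3.39%. In TAL, the thick ascending limb, 3 members passed (Il34, Tnfsf10 and Tnfaip2) where 5.24% of all genes did, a share of members (6.25%) near that background. Single members passed in DCT+CNT (Tnfaip2; 3.90% of all genes) and PT-S1 (Cxcl16; 2.30% of all genes), and none in the other 9 clusters. Over the 17 clusters, 68 of 816 pairs of member and cluster passed (8.33%), against 3.02% of all pairs of gene and cluster. No cluster was passed by 11 members, Ccl20, Ccl28, Il6, Il15, Tnfrsf1a, Tlr2, Myd88, Ripk2, Nfkb2, Rela and Stat3.

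**Figure D1:**
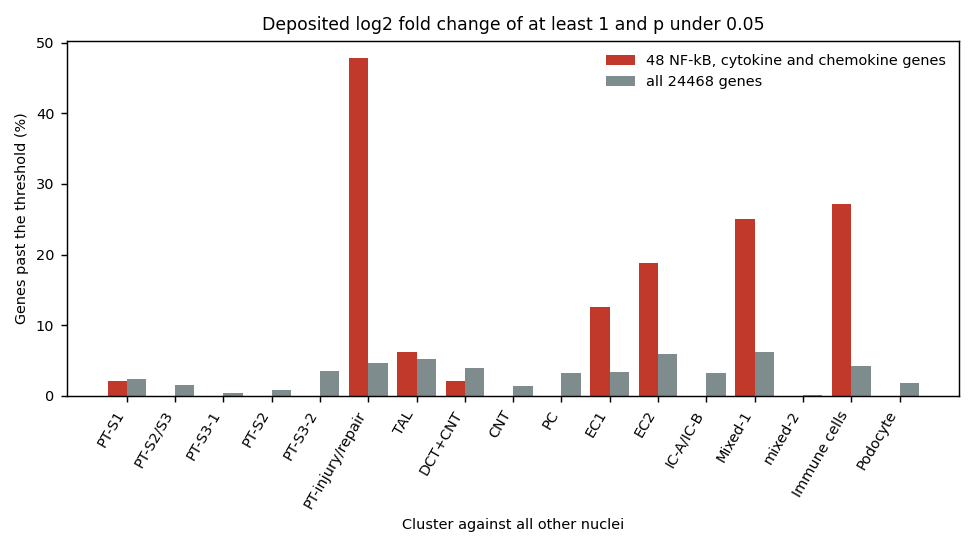
Share of genes past the threshold (percent, vertical axis) in each of the 17 clusters (horizontal axis), for the 48 members (red bars) and for all 24468 genes (grey bars). The members' bar is tallest in PT-injury/repair, at 47.9% beside 4.61%, and 9 clusters have no red bar.

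The highest average fell in Immune cells for 20 members, in PT-injury/repair for 12, in Mixed-1 for 7, in EC2 for 5, in EC1 for 3 and in PT-S3-1 for 1. For 21 of the 48 the interval of the ratio of the highest to the next cluster lay above 1, and for the other 27 the order of the top clusters was not resolved by the UMIs counted. The map of levels by cluster shows these blocks.

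**Figure D2:**
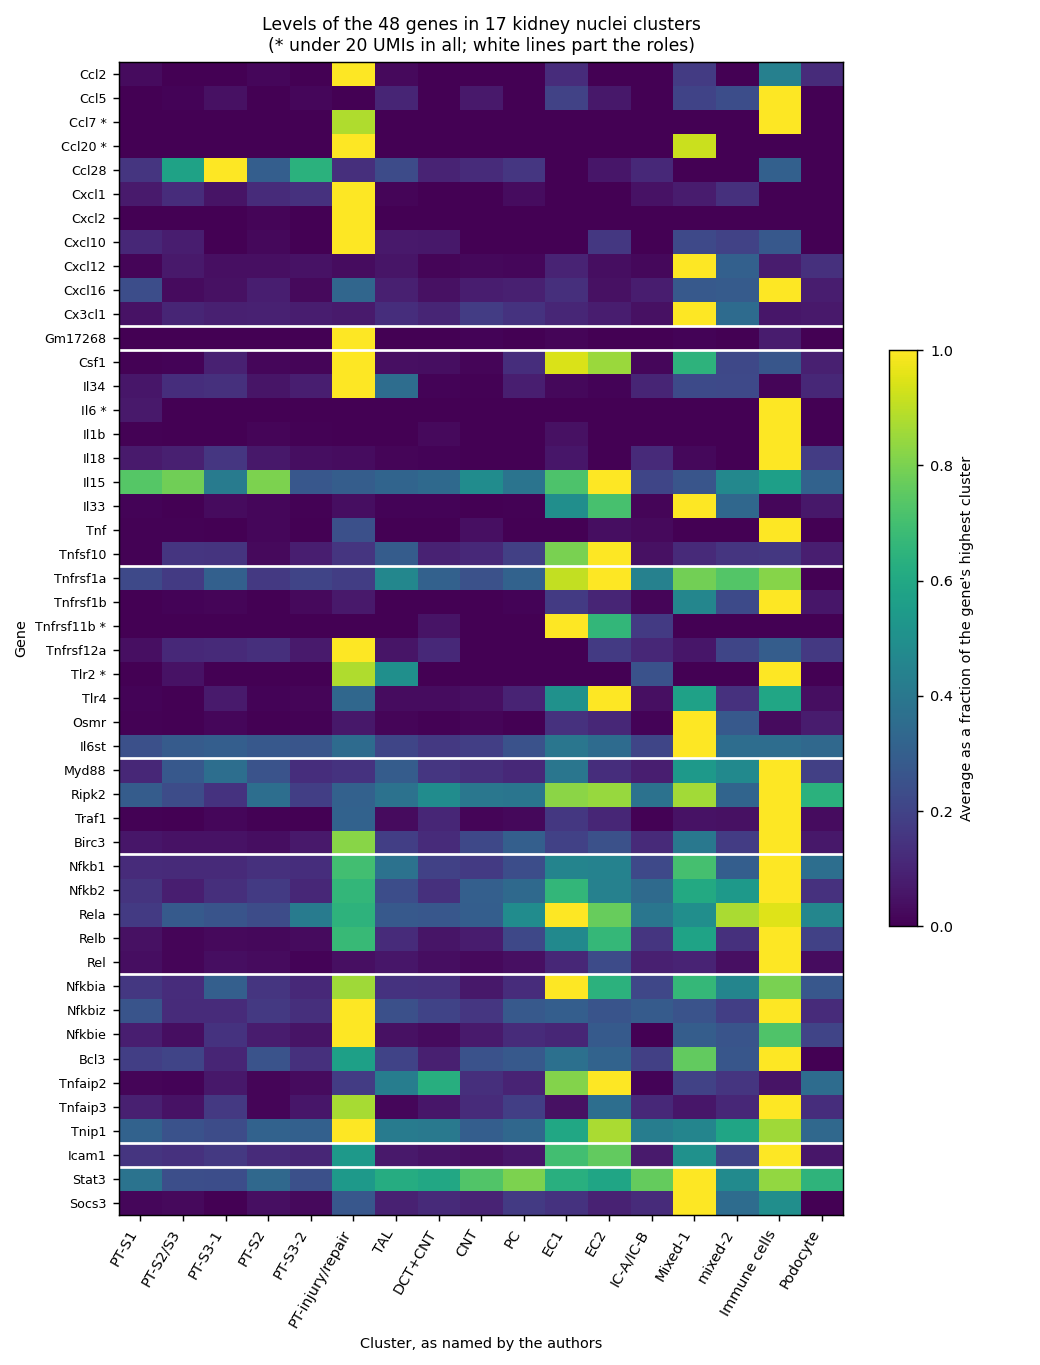
Average of each of the 48 genes (rows, ordered by role) in the 17 clusters (columns), as a fraction of that gene's highest cluster (color, from 0 to 1). Bright cells gather in PT-injury/repair, Immune cells, Mixed-1, EC1 and EC2, while Il15 and Ccl28 are bright in other proximal tubule clusters. Genes with an asterisk had under 20 UMIs in all.

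Within the proximal tubule, most members were highest in PT-injury/repair. Of 39 members with at least 20 UMIs over the 6 proximal tubule clusters, 31 (79.5%) had their highest proximal tubule average there, against 38.5% of 15145 genes with as many UMIs. That cluster held 6.92% of the proximal tubule UMIs. The 8 members that were highest in another proximal tubule cluster were Ccl28, Cxcl12, Cx3cl1, Il18, Il15, Tnfrsf1a, Myd88 and Ripk2. Below, the ratio of PT-injury/repair to the 5 other proximal tubule clusters together is called the injury ratio, a measure added after the data were seen.

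**Figure D3:**
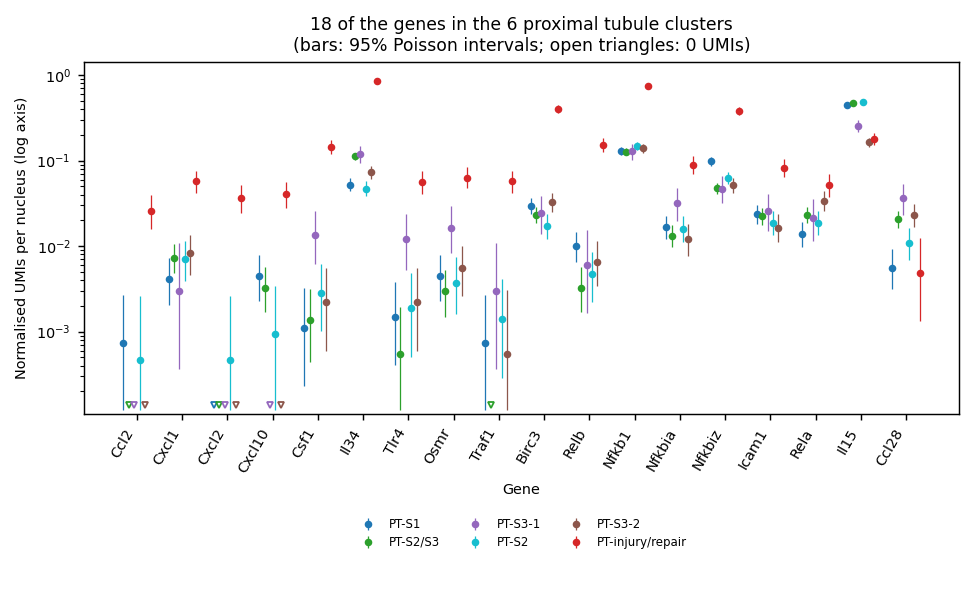
Average of 18 of the genes (horizontal axis) in each of the 6 proximal tubule clusters (points; normalised UMIs per nucleus, log axis), with 95% Poisson intervals of the UMI sums as bars and open triangles for 0 UMIs. The red points of PT-injury/repair lie above the other 5 for the genes from Ccl2 to Rela, and not for Il15 and Ccl28.

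In the comparison of Cis9w with CT9w, which asks what differed in the proximal tubule some weeks past the last dose, 6 of the 45 listed members rose and 1 fell. Relb, Bcl3, Birc3, Csf1, Icam1 and Gm17268 rose, and Tnfsf10 fell. Rose and fell mean that the authors' deposited table gives p under 0.05. The sources used here do not give its test, and the calls compare pools, not animals. The 6 rises are 13.3% of the listed members, where 0.995% of all 21312 genes were higher, and the fall is 2.22%, where 1.14% were lower. An expression floor of 0.0154 normalised UMIs per nucleus was set, the median gene's level when both pools are averaged. Of the 45 members 20 reached it, and among these 5 rose, where 1.51% of genes at the floor did. The members at the floor had, by the authors' deposited table, 0.61 as their median log2 fold change, beside 0.03 for all 10656 genes at the floor. Without Gm17268 and Ccl2 the members' median was 0.60. The log2 fold change was above 0 for 15 of these 20 members and for 54.9% of those genes. In these pools a change in the number of nuclei of a given state and a change in RNA per nucleus cannot be told apart.

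**Figure D4:**
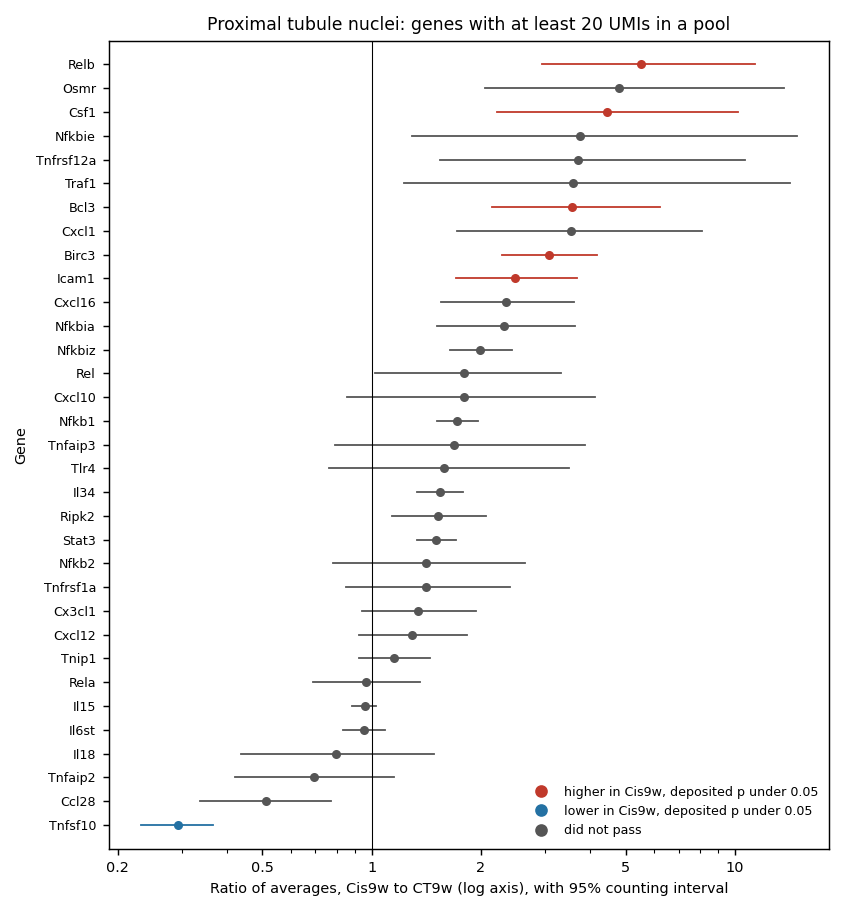
Cis9w average divided by CT9w average (horizontal axis, log scale) for the 33 genes with at least 20 UMIs in a pool and at least 1 in CT9w, with 95% counting intervals as bars. Red points rose and the blue point fell (p under 0.05, the authors' deposited table). Relb lies farthest to the right at 5.50 and Tnfsf10 farthest to the left at 0.292.

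Among the chemokine ligands, none of 11 passed in that comparison. With 0.995% of all genes higher and 1.14% lower, that count does not stand apart from all genes. In PT-injury/repair 6 of the 11 passed, where 4.61% of all genes did. Ccl2, the chief attractant of inflammatory monocytes, had 0 UMIs in CT9w against 17 in Cis9w. The ratio was 3.39 with 3 UMIs taken for the whole of CT9w (lower limit of the counting interval 2.47). Of its 31 UMIs over the 17 clusters, 21 were in PT-injury/repair (average 0.0256) and the next average was that of Immune cells (0.0111, from 2 UMIs). Ccl2 was thus a gene of few counts, seen mainly in PT-injury/repair. Cxcl1 and Cxcl2 encode neutrophil attractants and carry the shared kappaB block printed above. Cxcl1 had 9 UMIs in CT9w against 53 in Cis9w, a ratio of 3.53 (interval 1.72 to 8.13). Cxcl2 had 0 and 19, a ratio of 3.79 against 3 UMIs (lower limit of the counting interval 2.79). In the clusters, Cxcl1 averaged 0.0574 in PT-injury/repair and 0.00823 in PT-S3-2, the next highest. The 31 UMIs of Cxcl2 were in PT-injury/repair for 30, with 1 in PT-S2 and none in Immune cells. Both neutrophil attractants were therefore at 0 UMIs in the immune cluster and highest in the injured tubule cluster.

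Cxcl10, which attracts activated T cells, had 10 UMIs in CT9w against 30 in Cis9w, a ratio of 1.80 with an interval (0.855 to 4.12) that holds 1. Its highest averages were in PT-injury/repair (0.0403) and Immune cells (0.0111, from 2 UMIs), with an injury ratio of 17.1 (9.90 to 29.7). Cxcl16, a membrane-bound chemokine and scavenger receptor, had 30 UMIs and 117, a ratio of 2.34 (interval 1.55 to 3.61). Immune cells held its highest average (0.193), followed by PT-injury/repair (0.0635), and PT-S1 at 0.0459 was the highest of the other proximal tubule clusters. Cxcl16 was the member that passed in PT-S1 as well as in PT-injury/repair. Cxcl12, a stromal chemokine that retains CXCR4-bearing cells, had 52 and 112 UMIs, a ratio of 1.29 (interval 0.920 to 1.83). It averaged 0.566 in Mixed-1 and 0.174 in mixed-2, and in PT-injury/repair (0.0195) it lay within the range of the other 5 proximal tubule clusters, 0.00741 to 0.0387. Cx3cl1, the membrane-tethered ligand of CX3CR1, had 46 and 103 UMIs, a ratio of 1.34 (interval 0.938 to 1.94), and was likewise highest in Mixed-1 (0.271) and mixed-2 (0.0947). By UMIs, 121 of the 560 of Cx3cl1 were in Mixed-1 and 103 in PT-S2/S3. Cxcl12 and Cx3cl1 did not share the pattern of Cxcl1 and Cxcl2.

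Ccl28, a chemokine of mucosal epithelia, went the other way. It had 54 UMIs in CT9w and 46 in Cis9w, so that its Cis9w average was 1.96-fold lower (1.30 to 2.97), at p = 0.262 (the authors' deposited table). PT-S3-1 (0.0361) and PT-S3-2 (0.0231) had its highest averages, and its injury ratio was 0.297 (0.0801 to 0.774). By UMIs, 77 of its 212 were in PT-S2/S3 (average 0.0208), and it passed in no cluster. Ccl5, Ccl7 and Ccl20 had at most 2 UMIs in either proximal tubule pool. Ccl5, a T cell and monocyte attractant, was highest in Immune cells (0.0332, from 6 UMIs) and then in mixed-2 (0.00789, from 1 UMI). Ccl7, a relative of Ccl2, had 4 of its 5 UMIs in PT-injury/repair and 1 in Immune cells, and Ccl20 had 2 of 3 in PT-injury/repair and 1 in Mixed-1. Over the 11 chemokine genes, p-values in the authors' deposited table lay between 0.108 (Ccl2) and 1.00.

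Gm17268 rose by the largest log2 fold change of the members, 6.14 at p = 0.000141 (the authors' deposited table). It had 0 UMIs in CT9w against 117 in Cis9w, a ratio of 23.4 with 3 UMIs taken for the whole of CT9w (lower limit of the counting interval 18.7). In the clusters 183 of its 191 UMIs were in PT-injury/repair, where it averaged 0.223, and Immune cells came next at 0.0166 from 3 UMIs. GENCODE M21 places Gm17268 on the minus strand of chromosome 11 from 82028224 to 82038562 (GRCm38). Ccl2 lies within that span on the plus strand, from 82035571 to 82037453. The sources used here do not say how strand was used in counting, so UMIs of Gm17268 and Ccl2 may not be fully separable. Genes on the opposite strand also overlap 12 of the other 46 members, among them Bcl3, Icam1 and Il34. On the same strand, other genes overlap 3 members, Myd88, Ripk2 and Nfkb1.

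The cytokine and growth factor ligands divided by cell type. Csf1 encodes macrophage colony-stimulating factor, on which macrophage survival depends, and it rose from 9 UMIs in CT9w to 67 in Cis9w, a ratio of 4.46 (interval 2.21 to 10.2) at p = 0.0178 (the authors' deposited table). It lay below the expression floor. Its averages in PT-injury/repair (0.145) and EC1 (0.137) did not differ beyond counting error, and the other 5 proximal tubule clusters were between 0.00111 and 0.0135. Il34, the second ligand of the same receptor, had 254 UMIs in CT9w against 652 in Cis9w, a ratio of 1.54 (interval 1.33 to 1.78), and did not pass. In the clusters its average of 0.851 in PT-injury/repair stood above TAL (0.304), a ratio of 2.80 (interval 2.48 to 3.16). Among the proximal tubule clusters both macrophage growth factors were highest in PT-injury/repair, with injury ratios of 59.3 (38.8 to 93.7) for Csf1 and 10.7 (9.72 to 11.9) for Il34.

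Tnfsf10, which encodes the death ligand TRAIL, was the member that fell. It had 240 UMIs in CT9w and 117 in Cis9w, 3.43-fold lower (2.74 to 4.31), at p = 9.89e-07 (the authors' deposited table). Endothelial clusters had its highest averages, 0.608 in EC2 and 0.485 in EC1. In the proximal tubule it averaged 0.0940 in PT-injury/repair, 0.0933 in PT-S2/S3 and 0.0903 in PT-S3-1, and 0.00408 in PT-S1. PT-S3-2 (0.0505) and PT-S2 (0.0155) lay between. Slc7a13, a transporter gene of the third proximal tubule segment and the 1 proximal tubule marker of 10 that was called, fell with it, from 7456 UMIs to 3572, 3.49-fold (3.35 to 3.63) at p = 6.62e-10 (the authors' deposited table). The part of the segment makeup of the pools in the fall of Tnfsf10 was not tested. Il15, a survival factor of natural killer and memory T cells, had 1071 and 1710 UMIs, a ratio of 0.956 (interval 0.885 to 1.03). It was highest in EC2 (0.608) and PT-S2 (0.487), and its injury ratio of 0.442 (0.373 to 0.521) was below 1. Il18, an inflammasome-processed cytokine, had 21 and 28 UMIs, a ratio of 0.798 (interval 0.437 to 1.48), and averaged 0.105 in Immune cells and 0.0187 in Podocyte. Il33, a nuclear alarmin, had 3 and 19 UMIs in the pools and averaged 0.329 in Mixed-1 and 0.233 in EC2.

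The classical leukocyte cytokines were scarce. Tnf had 0 UMIs in CT9w and 9 in Cis9w, and in the clusters it averaged 0.0553 in Immune cells (10 UMIs) and 0.0134 in PT-injury/repair (11 UMIs). Il1b had 2 UMIs in CT9w and 3 in Cis9w. Of its 21 UMIs over the clusters, 13 were in Immune cells (average 0.0718) and none in PT-injury/repair, and EC1 was next at 0.00326 from 1 UMI. Il6 had 2 UMIs in all, 1 in Immune cells and 1 in PT-S1. Absence of Il6 and Il1b from proximal tubule nuclei was not shown, since at this depth only levels above a few UMIs per pool could be seen.

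None of the 6 listed receptor genes passed in Cis9w against CT9w, with p-values in the authors' deposited table from 0.0733 to 1.00. At the shares of all genes, 0.995% higher and 1.14% lower, such a count does not stand apart. Osmr, which encodes the oncostatin M receptor, came closest, with 6 UMIs in CT9w against 48 in Cis9w, a ratio of 4.79 (interval 2.05 to 13.7). Mixed-1 had its highest average, 0.982, ahead of mixed-2 (0.276), and its injury ratio was 13.4 (8.98 to 20.1). Il6st encodes gp130, the signalling chain that OSMR and the interleukin-6 receptor share. It had 373 and 594 UMIs, a ratio of 0.953 (interval 0.836 to 1.09), and averaged 0.508 in Mixed-1, 0.199 in EC1 and 0.124 to 0.178 across the proximal tubule clusters. The injury ratio of Il6st was 1.30 (1.09 to 1.54), above 1 but lower than that of Osmr.

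Of the TNF receptor genes, Tnfrsf12a, which encodes the TWEAK receptor Fn14, had 6 and 37 UMIs, a ratio of 3.69 (interval 1.54 to 10.7). It averaged 0.0378 in PT-injury/repair and 0.0111 in Immune cells (2 UMIs). Tnfrsf1a, the broadly expressed TNF receptor gene, had 23 and 54 UMIs, a ratio of 1.41 (interval 0.848 to 2.40). Its averages in EC2 (0.0539) and EC1 (0.0489) stood above those of PT-S2/S3 (0.00919) and PT-S2 (0.00892), and its injury ratio was 0.927 (0.391 to 1.89). Tnfrsf1b, the inducible TNF receptor gene, had 1 and 19 UMIs, and it averaged 0.210 in Immune cells and 0.0961 in Mixed-1. Tnfrsf11b, which encodes the decoy receptor osteoprotegerin, had 13 UMIs, with 5 in EC1 (0.0163) and 5 in EC2 (0.0108). Tlr4, the lipopolysaccharide receptor gene, had 11 and 29 UMIs, a ratio of 1.58 (interval 0.765 to 3.50). EC2 (0.168) and Immune cells (0.0995) had its highest averages, and the injury ratio was 28.1 (16.6 to 49.1). Tlr2, a receptor gene for bacterial lipoproteins, had 11 UMIs over the clusters, of which 4 were in PT-injury/repair, 4 in TAL and 1 in Immune cells. Tnfrsf12a and Tlr4 were the receptor genes that passed in PT-injury/repair.

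Adaptor genes included one of the clearest rises. Birc3, which encodes the ubiquitin ligase cIAP2, went from 55 UMIs in CT9w to 282 in Cis9w, a ratio of 3.07 (interval 2.29 to 4.18), and rose at p = 0.00196 (the authors' deposited table). Its averages in Immune cells (0.486) and PT-injury/repair (0.40) did not differ beyond counting error, and the other 5 proximal tubule clusters were between 0.0174 and 0.0329. Traf1, whose product binds cIAP2 at TNF receptors, had 4 and 24 UMIs, a ratio of 3.59 (interval 1.23 to 14.2). It averaged 0.182 in Immune cells and 0.0574 in PT-injury/repair, with an injury ratio of 79.0 (37.0 to 194). Both partners were thus high in the same pair of clusters. Ripk2, the kinase of NOD receptors, had 64 and 163 UMIs, a ratio of 1.52 (interval 1.14 to 2.07), and averaged 0.122 in Immune cells and 0.105 in Mixed-1. Myd88, the adaptor of Toll-like and interleukin-1 receptors, had 11 and 8 UMIs. It averaged 0.0166 in Immune cells (3 UMIs) and 0.00894 in Mixed-1 (4 UMIs), an order not resolved by counting. The injury ratios of Ripk2 (0.801 to 1.73) and Myd88 (0.0807 to 2.66) had intervals that hold 1.

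The 5 NF-kB subunit genes were not alike. Relb, the subunit of the non-canonical branch, rose from 11 UMIs in CT9w to 101 in Cis9w, a ratio of 5.50 (interval 2.95 to 11.4) at p = 0.000843 (the authors' deposited table). Immune cells (0.227) and PT-injury/repair (0.153) had its highest averages, and its injury ratio was 25.9 (19 to 35.5). Nfkb2, which encodes p52, the partner of RelB, had 17 and 40 UMIs, a ratio of 1.41 (interval 0.781 to 2.65). It averaged 0.0442 in Immune cells and 0.0293 in EC1, with an injury ratio of 5.29 (3.15 to 8.61). Nfkb1, which encodes p50, had 313 and 899 UMIs, a ratio of 1.72 (interval 1.51 to 1.96), at p = 0.169 (the authors' deposited table). It averaged 1.06 in Immune cells, 0.747 in Mixed-1 and 0.740 in PT-injury/repair, against 0.127 to 0.149 over the 5 remaining proximal tubule clusters. Rela, the main transactivating subunit, had 59 and 95 UMIs, a ratio of 0.964 (interval 0.689 to 1.36). It averaged 0.0814 in EC1 and 0.0774 in Immune cells, and its injury ratio was 2.43 (1.71 to 3.37). Rel, the lymphoid subunit, had 17 and 51 UMIs, a ratio of 1.80 (interval 1.02 to 3.32), and averaged 0.376 in Immune cells and 0.0862 in EC2. Of the subunit genes, then, Relb rose and the other 4 did not pass, and whether Relb differed from them was not tested.

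Genes of the inhibitors, cofactors and feedback proteins had 6 of 7 members past the threshold in PT-injury/repair, where 4.61% of all genes passed. Bcl3 was the member of these 7 that rose in Cis9w. Bcl3, an IkB-like coactivator of p50 and p52, went from 18 UMIs to 107, a ratio of 3.56 (interval 2.15 to 6.23) at p = 0.00608 (the authors' deposited table). It averaged 0.0884 in Immune cells and 0.0671 in Mixed-1, and its injury ratio of 2.95 (2.05 to 4.15) was lower than that of Relb or Birc3. Nfkbiz, another nuclear IkB protein gene, had 138 and 459 UMIs, a ratio of 1.99 (interval 1.64 to 2.43), at p = 0.0537 (the authors' deposited table). PT-injury/repair (0.382) and Immune cells (0.381) had equal averages of it within counting error. Nfkbia, which encodes the inhibitor IkB-alpha and carries the kappaB match printed above, had 28 and 108 UMIs, a ratio of 2.31 (interval 1.51 to 3.64). It averaged 0.104 in EC1 and 0.0891 in PT-injury/repair, with an injury ratio of 5.74 (4.30 to 7.59). Nfkbie, the gene of IkB-epsilon, had 4 and 25 UMIs, a ratio of 3.74 (interval 1.29 to 14.8). It averaged 0.0305 in PT-injury/repair and 0.0221 in Immune cells (4 UMIs). All of these IkB family genes had injury ratios above 1.

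Tnfaip3 and Tnip1 encode the ubiquitin-editing enzyme A20 and its binding partner, which shut NF-kB signalling off. Tnfaip3 had 10 and 28 UMIs, a ratio of 1.68 (interval 0.790 to 3.87), and averaged 0.0718 in Immune cells and 0.0623 in PT-injury/repair. Tnip1 had 123 and 237 UMIs, a ratio of 1.15 (interval 0.924 to 1.45), and averaged 0.148 in PT-injury/repair and 0.129 in EC2. Tnfaip2, a TNF-induced gene of endothelium, had 32 and 37 UMIs, a ratio of 0.692 (interval 0.420 to 1.15). It averaged 0.308 in EC2 and 0.251 in EC1, and it alone of these 7 genes did not pass in PT-injury/repair. Injury ratios were 14.3 (9.44 to 21.6) for Tnfaip3, 3.47 (2.82 to 4.25) for Tnip1 and 10.4 (6.91 to 15.7) for Tnfaip2. A high injury ratio was thus not always met by a higher average in Cis9w.

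Icam1, which encodes the adhesion molecule that leukocyte integrins bind, rose from 36 UMIs to 149, a ratio of 2.48 (interval 1.71 to 3.67) at p = 0.0290 (the authors' deposited table). It averaged 0.155 in Immune cells and 0.118 in EC2, and 0.0830 in PT-injury/repair against 0.0165 to 0.0256 over the 5 remaining proximal tubule clusters. In the STAT3 arm, through which gp130 signals, Stat3 had 342 and 859 UMIs, a ratio of 1.5 (interval 1.33 to 1.71). It averaged 0.561 in Mixed-1 and 0.470 in Immune cells. Socs3, the feedback inhibitor gene of that arm, had 2 and 7 UMIs and averaged 0.0224 in Mixed-1 (10 UMIs) and 0.0111 in Immune cells (2 UMIs). Neither passed in Cis9w against CT9w.

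The difference between groups and the difference between proximal tubule clusters were set side by side for 34 members with at least 20 UMIs in each table. Both log2 values were above 0 for 25 members. In 4 the injury ratio was above 1 and the Cis9w average lower (Tnfsf10, Tnfaip2, Rela and Il6st). Cxcl12 and Cx3cl1 were the reverse, and Il18, Il15 and Ccl28 were lower in both. This sorts genes by sign only, and many signs were not resolved by counting. Injury ratio intervals of Cxcl12 (0.433 to 1.27), Cx3cl1 (0.490 to 1.44) and Il18 (0.0938 to 1.40) hold 1. Cis9w to CT9w intervals of these genes and of Il15, Rela, Il6st and Tnfaip2 hold 1 as well. The same is true of some of the 25, among them Cxcl10 and Tlr4. Across these 34 genes Pearson's r was 0.77 and Spearman's rho 0.68. The same count and correlations were not computed over all genes, so they cannot be read as a trait of the members. Taken singly, 38.5% of genes with at least 20 proximal tubule UMIs were highest in PT-injury/repair among the proximal tubule clusters. The log2 fold change was above 0 for 54.9% of genes at the floor. Genes are not independent, and both tables come from the same series and may share nuclei, so the values describe these pools only.

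**Figure D5:**
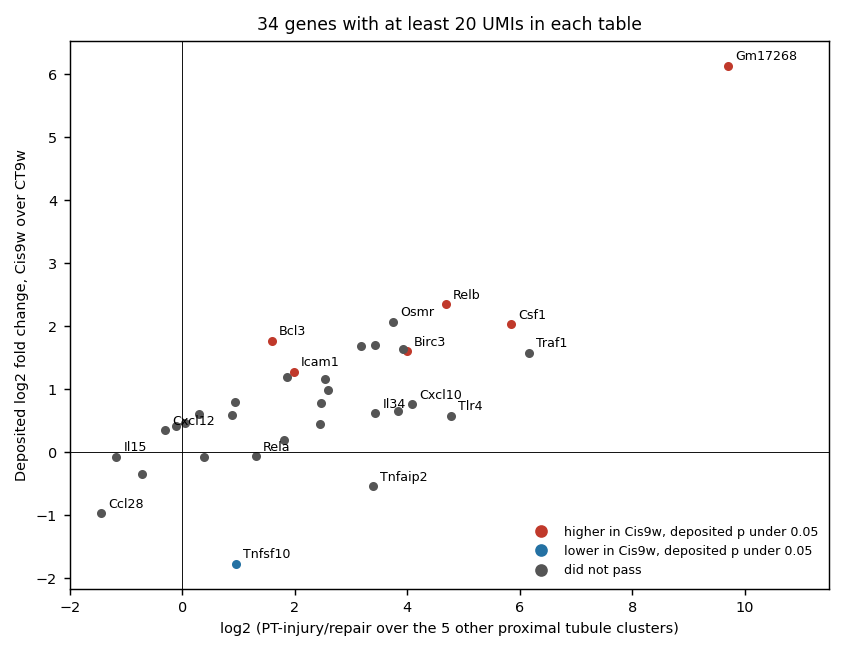
Each point is 1 of 34 genes. The horizontal axis is the log2 ratio of PT-injury/repair to the 5 other proximal tubule clusters, with 1 UMI added to both sums, and the vertical axis is the log2 fold change of Cis9w over CT9w in the authors' deposited table. Gm17268 lies at 9.69 and 6.14, and Tnfsf10 is the lowest point at -1.77.

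Injured tubule markers moved with the same comparison. Of 13 such markers 6 rose and none fell, where 0.995% of all genes were higher and 1.14% lower. Their summed level was 0.228 in CT9w against 0.957 in Cis9w, a ratio of 4.19 (interval 3.78 to 4.66). Spp1 alone gave 232 of the 418 UMIs in CT9w and 1066 of the 2928 in Cis9w. Krt20, Lcn2, Sox9 and Ccl2 were at 0 in CT9w, and Ccl2 is also one of the 48. Havcr1, the gene of kidney injury molecule 1, had 2 UMIs in CT9w and 177 in Cis9w, Vcam1 3 and 217, and Dock10 27 and 896. Among the 7 that did not pass, Krt8 had a ratio of 1.14 (0.732 to 1.81) and Krt18 of 0.838 (0.456 to 1.57). None of 16 macrophage and dendritic cell markers passed, and their summed level was 0.160 in CT9w against 0.143 in Cis9w, a ratio of 0.894 (interval 0.769 to 1.04), with Tyrobp at 0 in Cis9w. Csf1r gave 174 of the 294 UMIs in CT9w and 144 of the 439 in Cis9w, and it is also counted in PT-S3-1 (0.215). Without Csf1r, a choice made after its values were seen, the ratio of the sums was 1.47 (1.19 to 1.84). Ptprc, the pan-leukocyte gene, had 10 and 48 UMIs, Cd74 17 and 47, C1qa 3 and 5, and Cd3e 2 and 1. Of 11 listed lymphocyte markers none passed, the ratio of their sums was 1.43 (0.985 to 2.10), and Cd3g, Cd4, Cd8a, Klrb1c, Cd79b and Pax5 were at 0 in CT9w. The 3 listed neutrophil markers had 0 UMIs in CT9w and 5 in Cis9w. Sums of endothelial markers had a Cis9w to CT9w ratio of 1.52 (1.35 to 1.71), of fibroblast, pericyte and mesangium markers 1.37 (1.10 to 1.72), of principal cell markers 2.04 (1.65 to 2.52) and of intercalated cell markers 2.28 (1.85 to 2.84). The same ratio was 1.44 (1.37 to 1.51) for distal convoluted and connecting tubule markers, 1.01 (0.980 to 1.04) for podocyte markers, 0.967 (0.958 to 0.976) for proximal tubule markers and 0.705 (0.669 to 0.742) for thick ascending limb markers. Single genes gave much of several of these sums. Magi2 gave 7121 of the 7687 podocyte marker UMIs in CT9w and 11816 of the 12940 in Cis9w. Of the 8 podocyte markers 1 rose, Synpo, from 10 UMIs to 68, and none fell. Of the 7 principal cell markers 2 rose, Scnn1b from 21 UMIs to 114 and Hsd11b2 from 18 to 91, and none fell. No endothelial, fibroblast, pericyte and mesangium, intercalated cell, distal convoluted and connecting tubule or thick ascending limb marker was called. Slc8a1 gave 1331 of the 2364 distal convoluted and connecting tubule UMIs in CT9w and 4046 of the 5678 in Cis9w. Slc12a1 gave 1399 of the 2675 thick ascending limb UMIs in CT9w and 1592 of the 3148 in Cis9w. Cspg4 gave 60 of the 117 fibroblast, pericyte and mesangium UMIs in CT9w and 140 of the 268 in Cis9w. Skap1 gave 28 of the 42 lymphocyte marker UMIs in CT9w and 64 of the 100 in Cis9w. The part of injured nuclei or of RNA of these other cell types in the members' differences was not tested.

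Of 155 other genes of the pathway, from lists written by function, 4 rose (2.58%) and none fell, where 0.995% of all genes were higher and 1.14% lower. At these shares a short list with no call does not stand apart from all genes. None of 28 listed genes of IkB kinases, TRAF proteins and adaptors passed, and none of 17 further negative regulators, of 8 further chemokines, of 11 chemokine receptors or of 21 JAK-STAT genes did. Their medians at the floor in the authors' deposited table were 0.13, 0.03, -0.39 (from 1 gene), -0.02 and -0.09, beside 0.03 for all genes. Among 21 further cytokine ligands Il7, a lymphocyte growth factor gene, rose from 364 UMIs to 1199, a ratio of 1.97 (interval 1.75 to 2.22). Of 35 further receptor genes 1 rose, Eda2r, a TNF receptor family member and p53 target, from 4 UMIs to 108. Leukocyte adhesion genes had 2 rises among 14 listed, Vcam1 and Cd44, the hyaluronan receptor gene, from 19 UMIs to 184 (5.80, 3.61 to 9.85).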

How the data were processed

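UMIs were counted in nuclei of kidney cortex with outer medulla. The submitters' processing notes name Cell Ranger 5.0.1 and mm10. Per the file headers, both deposited tables give a signal (average normalised UMIs per nucleus), a p-value and a log2 fold change for each gene. The sources used here do not give the clustering, the test, how nuclei were filtered or how doublets were treated. From the deposited signal, UMI sums were recovered as whole multiples of 1 step per column, within 0.1 UMI for at least 99.9953% of genes. Ratios have Clopper-Pearson intervals and levels Poisson intervals at 95% (scipy 1.17.1), which cover counting error only. For a pool with 0 UMIs, the ratio took 3 UMIs for the whole pool. The steps were checked on simulated data. No test across samples was possible, and no count model was run, since each group has 1 column.

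Members with at least 20 UMIs in a proximal tubule pool, or called, have their values in both pools, and each member its highest and next highest cluster. Other members are given by counts and ranges, or by single values. Up to 3 called rises and falls per pathway list are named, and defining leukocyte markers whatever their value. Members and lists were chosen with earlier results of these data known. Coordinates are from GENCODE M21 (GRCm38). Other settings tried were a p under 0.01, minimum folds, floors, pseudocounts, subtraction of the median, means, and other motif settings.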

Additional observations from a re-analysis of the deposited data

How the results depend on the processing

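No replicate could be left out, and no paired analysis was possible because no column is labelled with a sample. At p under 0.01 (the authors' deposited table) the count was 4 members higher and 1 lower, and at the expression floor 5 and 1. With a log2 fold change of at least 1, or with the median over genes subtracted, the counts were 6 and 1. Those 2 settings could not change the counts. The smallest called log2 fold change in size was 1.28 (Icam1, the authors' deposited table), and the median subtracted was 0.03. The median log2 fold change of the members ranged from 0.57 to 0.85 over 6 other settings. The count of member and cluster pairs ranged from 55 to 57 over 3 stricter thresholds, against 68. A looser motif, which keeps only the outer GGG and CC of the 10 bases, was matched in 27 of 35 member promoters (77.1%) and in 53.5% of all genes' promoters, and 13 members matched when only bases before the start were read. For the 33 genes with a ratio, all 99 alternative values stayed inside the counting interval of the ratio. Those alternatives re-express the same averages, by a division by 1.03, the deposited log2 fold change or a small pseudocount. They could hardly leave the interval and are no check on the data. Il6, Ccl5, Ccl7, Ccl20, Tlr2 and Tnfrsf11b had few UMIs, and their highest and next clusters were not resolved by counting, including where a call was made.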

Other observations

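Receptors of the members' ligands, from a list of ligand and receptor pairs added after the data were seen, included several that were highest in Immune cells. Ccr2, the receptor gene for Ccl2 and Ccl7, averaged 0.525 in Immune cells and 0.0158 in mixed-2, a ratio of 33.3 (interval 8.96 to 279). Cx3cr1, the receptor gene for Cx3cl1, averaged 0.321 there and 0.0228 in EC1. Il1rl1, the receptor gene for Il33, had 11 of its 16 UMIs in Immune cells. Cxcr2, the receptor gene for Cxcl1 and Cxcl2 on neutrophils, had 15 UMIs over all clusters and no cluster stood out.

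Some receptor genes lay in the tubule. Ackr3, a scavenging receptor gene for Cxcl12, was highest in PT-injury/repair at 0.261, with 0.0842 to 0.150 over the 5 remaining proximal tubule clusters and 0.199 in PC. Csf1r, the receptor gene for Csf1 and Il34, averaged 0.547 in Immune cells and 0.215 in PT-S3-1, and it passed the threshold in PT-S3-1 and PT-S3-2 as well as in Immune cells. Il18r1 averaged 0.0884 in Immune cells and 0.0305 in PT-injury/repair, from 16 and 25 UMIs, with no more than 0.00301 in any of the 5 remaining proximal tubule clusters. Il15ra was spread over the nephron, with 0.201 in CNT, 0.188 in TAL and 0.107 to 0.166 in the 5 other proximal tubule clusters.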
